A study of Mus musculus with 29 samples.

Results

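The genes described here lie together on mouse chromosome 13, between the transcription factor gene Mef2c and Tmem161b: the long non-coding RNA gene C130071C03Rik, the microRNA gene Mir9-2 inside it, the antisense microRNA gene Gm51268, the long non-coding RNA genes Gm17750, 2810049E08Rik and A230107N01Rik, and the protein-coding genes Mef2c and Tmem161b. They were chosen by name, 8 of the 25239 genes in the count tables, because they had been lower in knockout than in wild-type forebrain in an earlier look at the same libraries. All 8 passed the filter on low counts that left 15383 genes for testing. Values of that forebrain comparison are therefore given as a description, with no test.

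Poly(A) RNA was sequenced from mouse embryos of stage E11.5 in 4 groups of 2 libraries: wild-type forebrain, forebrain with the hs267-853 knockout, wild-type midbrain, and midbrain with the hs654 knockout. hs654, hs267 and hs853 are names of enhancers, and the labels do not say whether hs267-853 is 1 deletion or 2. Coordinates of the deleted elements were not used here. Each library is a pool of tissue from several embryos with the same genotype, so p-values measure the spread between pools. Dissected tissue holds many cell types, so fewer cells of a type and less RNA per cell cannot be told apart.

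MicroRNAs are cut from hairpins in longer primary transcripts and, once mature, repress messenger RNAs that match their seed, the bases near the 5′ end. miR-9 is made from several loci in the mouse genome and is abundant in the developing brain, where it acts on regulators of neural progenitors. C130071C03Rik spans the Mir9-2 hairpin on the same strand, as a host transcript does. Mef2c encodes a MADS-box transcription factor that acts in neurons, muscle, endothelium and microglia. Poly(A) RNA-seq counts at a hairpin come from the long transcript, and mature miRNA was not measured.

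The mature sequences are shown because they are what the locus encodes, with the seed (bases 2 to 8) in capitals, from the RefSeq table of GRCm38.p6. The mature miR-9 arms are identical in Mir9-1, Mir9-2 and Mir9-3 (3 loci). None of the other mature miRNAs in the table, which holds 1679 names, shares any of these seeds (0 for each).
mmu-miR-9-5p: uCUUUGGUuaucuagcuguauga
mmu-miR-9-3p: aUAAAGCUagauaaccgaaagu
mmu-miR-9b-3p (from Gm51268): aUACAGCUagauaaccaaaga
The seeds of the miR-9 arms and of miR-9b-3p all differ, so they form no shared group.

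The hairpins, with the mature arms in capitals, differ between loci outside those arms, and the bases between the arms number 14 in Mir9-2 and 16 in Mir9-1 and Mir9-3. Gm51268 is the reverse complement of bases 8 to 63 of the Mir9-2 hairpin, and miR-9b-3p is the reverse complement of the first 21 bases of miR-9-5p.
Mir9-1: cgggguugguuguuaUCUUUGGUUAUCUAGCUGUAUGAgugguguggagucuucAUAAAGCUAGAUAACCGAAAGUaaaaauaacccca
Mir9-2: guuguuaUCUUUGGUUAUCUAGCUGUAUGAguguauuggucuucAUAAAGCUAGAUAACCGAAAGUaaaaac
Mir9-3: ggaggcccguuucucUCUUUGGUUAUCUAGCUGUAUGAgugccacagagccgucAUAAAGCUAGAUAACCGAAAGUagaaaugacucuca
Gm51268: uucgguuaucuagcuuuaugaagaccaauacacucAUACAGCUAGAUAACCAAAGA
Mir9-2 (chr13:83738814-83738885, plus strand) and Gm51268 (chr13:83738821-83738876, minus strand) thus cover the same bases. Whether the counting used the strand is not given in the sources used here. How reads there were divided among Mir9-2, Gm51268 and C130071C03Rik is therefore not known, and their values are uncertain to that extent. Gm51268 lies within Mir9-2, so without the strand every read over Gm51268 also lies over Mir9-2. Gm51268 still had more counts than Mir9-2 in some libraries, such as 18 against 6 in wild-type midbrain replicate 2.

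In GRCm38 order, Mef2c (chr13:83504017-83667079) ends 54.3 kb before C130071C03Rik (chr13:83721381-83741308, plus strand), and the Mir9-2 hairpin begins 17.4 kb into the host gene. 2810049E08Rik (chr13:83891208-83928710), Gm17750 (chr13:84025297-84064774, minus strand), A230107N01Rik (chr13:84219581-84222175, minus strand) and Tmem161b (chr13:84222296-84295966) follow, and 120 bp separate the last pair. The RefSeq table has 24 genes starting within 1 Mb of the start of C130071C03Rik, of which 8 have a row in the count tables, and these are the genes described.

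Total counts over genes ranged from 9051632 to 18024406 per library. Levels are given in CPM, counts per 1000000 of the library, with library sizes adjusted by TMM, and 3 counts, the upper limit that a count of 0 allows, equal 0.170 to 0.328 CPM. Regional genes followed the tissue labels. All 8 tested forebrain genes of 9 listed (Lhx2, Six3, Emx2 and others) were higher in wild-type forebrain and all 10 midbrain genes (En1, En2, Pax7 and others) were lower there. The second principal component (6.33% of the variance) set forebrain hs267-853 knockout replicate 1 apart, at -33.7 against -1.65 to 18.3 in the other libraries.

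C130071C03Rik had the most counts of the locus in every library. Its level was 283.9 and 295.7 CPM in wild-type forebrain, and 121.6 and 89.2 CPM in hs267-853 knockout forebrain. Wild-type midbrain had 136.3 and 123.9 CPM, and hs654 knockout midbrain had 139.5 and 126.8 CPM. Both wild-type forebrain pools stood above the other 6 libraries, the midbrain groups overlapped, and the knockout forebrain pools were the lowest. The highest knockout forebrain value, 121.6 CPM, lay close under the lowest midbrain value, 123.9 CPM.

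The counts of Mir9-2 were 33 and 23 in wild-type forebrain, 14 and 15 in knockout forebrain, 20 and 6 in wild-type midbrain, and 11 and 6 in knockout midbrain. These equal 2.24 and 1.78, 0.794 and 0.982, 1.27 and 0.479, and 0.946 and 0.655 CPM. Wild-type forebrain was again highest and overlapped no other group, and the remaining 3 groups overlapped one another. Gm51268 had 19 and 14 counts (1.29 and 1.08 CPM) in wild-type forebrain and 5 and 9 (0.284 and 0.589 CPM) in knockout forebrain. In wild-type midbrain it had 12 and 18 counts (0.759 and 1.44 CPM), and in knockout midbrain 12 and 11 (1.03 and 1.20 CPM). Only knockout forebrain stood apart for Gm51268, below the 3 other groups.

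Gm17750, a long non-coding RNA gene, was counted mainly in forebrain. It had 76 and 39 counts (5.16 and 3.02 CPM) in wild-type forebrain and 44 and 25 (2.50 and 1.64 CPM) in knockout forebrain. Wild-type midbrain had 7 and 7 counts (0.443 and 0.559 CPM), and hs654 knockout midbrain had 4 and 7 (0.344 and 0.765 CPM). The 4 forebrain libraries lay above all 4 midbrain libraries.

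Mef2c measured 20.1 and 23.4 CPM in wild-type forebrain, 14.4 and 20.6 CPM in knockout forebrain, 12.6 and 16.1 CPM in wild-type midbrain, and 15.4 and 13.3 CPM in knockout midbrain. Its knockout forebrain pools lay far apart and overlapped all other groups. Tmem161b, which encodes a transmembrane protein, measured 21.1 and 21.4 CPM in wild-type forebrain, 17.5 and 18.1 CPM in knockout forebrain, 21.3 and 19.8 CPM in wild-type midbrain, and 19.9 and 17.8 CPM in knockout midbrain. It was the most even of the genes. A230107N01Rik, which begins beside Tmem161b and runs away from it, lay between 0.655 and 1.97 CPM, and 2810049E08Rik between 0.327 and 1.39 CPM, each with overlapping groups in forebrain.

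**Figure D1:**
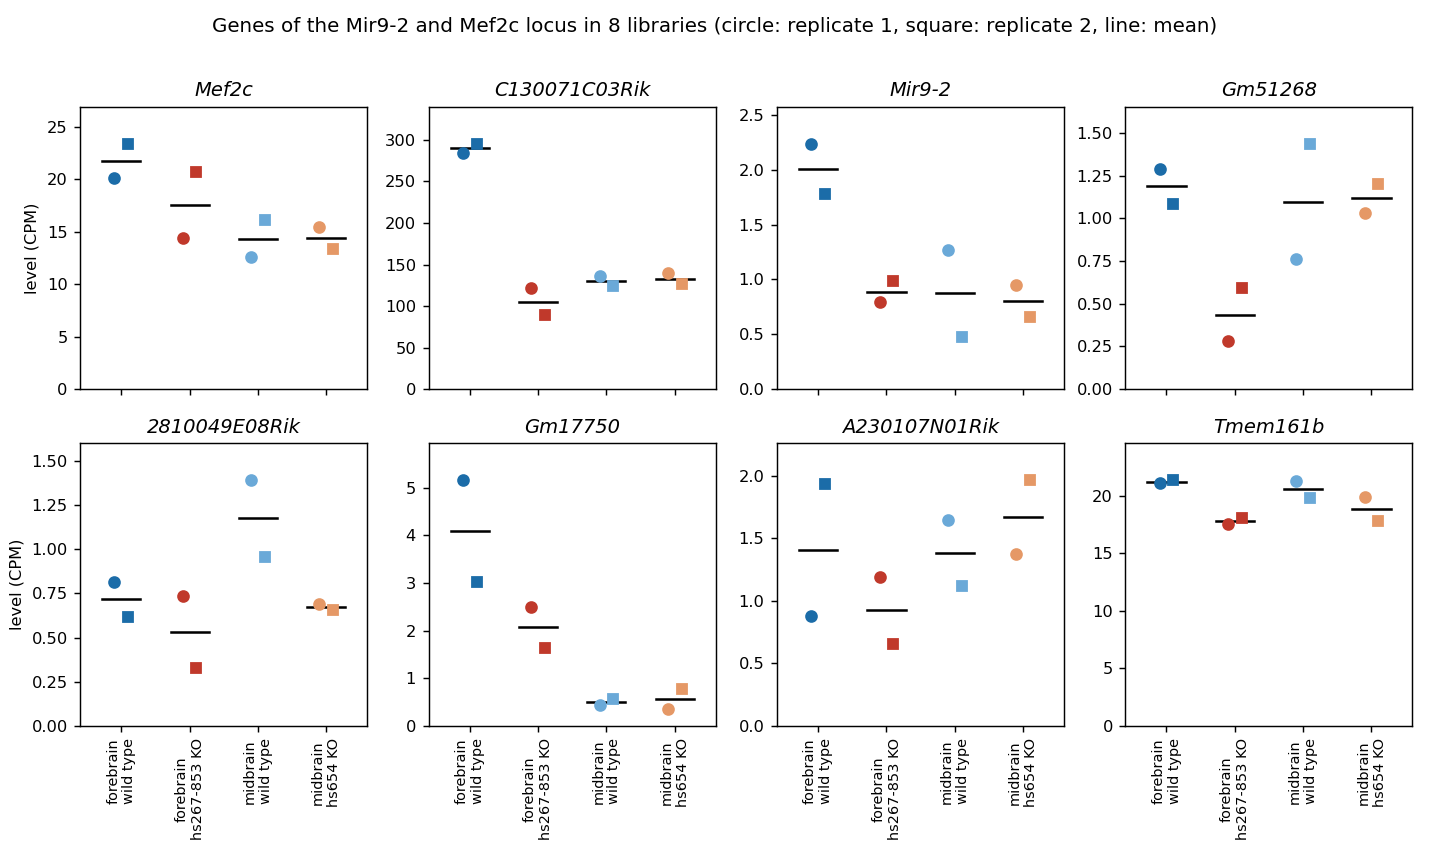
Level (CPM, linear axis from 0, a scale of its own in each panel) of the 8 genes in chromosome order, by group; circles are replicate 1, squares replicate 2 and lines the mean of 2 libraries. C130071C03Rik in wild-type forebrain (283.9 and 295.7 CPM) stands above the other 6 libraries, and Gm17750 is near the floor in midbrain.

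Wild-type forebrain was compared with wild-type midbrain to see which genes of the locus differ between the tissues without a deletion. C130071C03Rik, Gm17750 and Mef2c were higher in forebrain, 3 of 8, and none was lower. Over all genes tested, 29.6% passed the same threshold (adjusted p under 0.05, Benjamini-Hochberg over 15383 genes, edgeR's quasi-likelihood test) and 14.3% were higher in forebrain. These libraries include the wild-type forebrain pools of the comparison that chose the genes, and that choice favours high values in them. Differences are on the log2 scale, forebrain minus midbrain.

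C130071C03Rik averaged 289.8 ± 8.31 CPM in forebrain, against 130.1 ± 8.79 CPM for midbrain (SD, n = 2). The log2 difference was 1.15 (SE 0.11, adjusted p = 4.95e-06, edgeR). Gm17750 had the largest difference, 3.03 (SE 0.488, adjusted p = 0.000471, edgeR), or 8.15-fold, with 7 counts in each wild-type midbrain library. Mef2c differed by 0.61 (SE 0.183, adjusted p = 0.0242, edgeR). The Mef2c call was lost without forebrain wild-type replicate 2 (0.50, adjusted p = 0.155) or without midbrain wild-type replicate 1 (0.43, adjusted p = 0.208), whereas C130071C03Rik and Gm17750 passed with any 1 library left out.

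Mir9-2 differed by 1.16, the same size as its host, but did not pass (SE 0.493, adjusted p = 0.0975, edgeR). The difference for Gm51268 was 0.14 (95% interval -0.96 to 1.25). Tmem161b differed by 0.04 (SE 0.118), A230107N01Rik by -0.01 (SE 0.493) and 2810049E08Rik by -0.71 (SE 0.536), none past the threshold. Genes higher in both forebrain pools than in both midbrain pools were C130071C03Rik, Mir9-2, Gm17750 and Mef2c, 4 of 8, against 33.2% of all genes.

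Marker genes of other cell types also differed between the tissues, where 29.6% of all genes passed in either direction. The summed level of 10 neuronal genes was 1712 to 1982 CPM in wild-type forebrain and 3864 to 4013 CPM in wild-type midbrain, and all 10 were lower in forebrain. The sum of 10 neural progenitor genes was 3916 to 3977 and 4559 to 4565 CPM, with 4 higher and 4 lower. For cells known to express Mef2c, 10 endothelial genes summed to 361.5 to 368.7 CPM in forebrain and 281.3 to 344.1 CPM in midbrain, with 3 higher in forebrain. The 10 macrophage and microglia genes summed to 37.1 to 47.6 and 66.2 to 75.2 CPM, with 5 lower in forebrain. The mesenchymal sum over 10 genes was 1811 to 2265 CPM in forebrain and 1447 to 2011 CPM in midbrain, with 4 higher and 1 lower in forebrain. The erythroid sum over 10 genes was 4845 and 4487 CPM in forebrain, and none of these genes passed. In midbrain that sum was unequal, 6793 CPM in replicate 1 and 3617 CPM in replicate 2. Muscle genes were near 0, with sums of at most 3.17 CPM over 8 genes in any library and 3 genes at 0 in both libraries of a group. The part of these cell types in the differences was not tested.

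The hs654 comparison asked whether the locus changes in midbrain when that enhancer is deleted, and its 4 libraries took no part in choosing the genes. No gene of the locus passed the threshold in edgeR (0 of 8), and 0 of 8 had an unadjusted p under 0.05. DESeq2 and limma-voom also called 0 of 8. Over all genes 0.00% passed in edgeR, while 609 of 15383 genes had an unadjusted p under 0.05. The groups overlapped for 7 of the 8 genes. The exception was 2810049E08Rik, at 1.39 and 0.958 CPM without the deletion and 0.688 and 0.655 CPM with it, against 36.7% of all genes with no overlap.

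For C130071C03Rik the midbrain difference, knockout minus wild type, was 0.03 (SE 0.113), with a 95% interval of -0.21 to 0.28. For Mef2c it was 0.02 (95% interval -0.40 to 0.44) and for Tmem161b -0.12 (95% interval -0.39 to 0.14). These intervals bound the change that the libraries allow and do not show that there was none. Mir9-2 differed by -0.14 (SE 0.578), Gm51268 by 0.04 (SE 0.537), Gm17750 by 0.11 (SE 0.675), A230107N01Rik by 0.24 (SE 0.512) and 2810049E08Rik by -0.81 (SE 0.572). The standard errors of these low-count genes were several times that of C130071C03Rik.

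In forebrain the differences between hs267-853 knockout and wild type chose the genes, so they cannot show that the locus changed as a unit. All 8 genes were below 0, a direction that the choice itself favours. C130071C03Rik fell by 1.46 on the log2 scale (SE 0.111), that is to 0.364 of its wild-type level, or from 289.8 ± 8.31 to 105.4 ± 22.9 CPM (SD, n = 2). The others were Gm51268 at -1.45 (SE 0.57), Mir9-2 at -1.18 (SE 0.485), Gm17750 at -0.98 (SE 0.391), A230107N01Rik at -0.57 (SE 0.52), 2810049E08Rik at -0.41 (SE 0.585), Mef2c at -0.32 (SE 0.178) and Tmem161b at -0.25 (SE 0.118). C130071C03Rik, Mir9-2, Gm51268, Gm17750 and Tmem161b, 5 of 8, had both knockout pools below both wild-type pools, against 13.9% of all genes. The choice of the genes favours this count too. At the adjusted threshold 0.0130% of all genes differed in this comparison. The midbrain difference minus the forebrain one was above 0 for 7 of 8 genes and 1.49 (SE 0.157) for C130071C03Rik, where 0.00650% of all genes passed.

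The knockout pools were unequal. Without replicate 1, the library that stood apart on the second component, C130071C03Rik was at -1.70, and without replicate 2 at -1.25. Mef2c moved from -0.07 without knockout replicate 1 to -0.60 without knockout replicate 2, and Gm51268 was at -2.03 without knockout replicate 2. Gm17750 was at -0.54 without wild-type replicate 1. 2810049E08Rik was at 0.03 without knockout replicate 2 and at -1.12 without knockout replicate 1, and A230107N01Rik at 0.08 without wild-type replicate 2. For these last 2 genes the direction thus rested on single libraries.

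Marker sums in forebrain are given beside these values. The endothelial sum was 366.7 to 369.2 CPM in the knockout, beside 361.5 to 368.7 CPM without it, a near constant level. The macrophage and microglia sum was 35.5 and 36.7 CPM in the knockout and 47.6 and 37.1 CPM in wild-type pools. Of these 10 genes 8 were below 0, with a median of -0.30 beside -0.32 for Mef2c, and none passed the threshold. The mesenchymal sum was 2265 and 1811 CPM in wild type. In the knockout it was 1296 and 1985 CPM, lowest in replicate 1, where Mef2c was lowest among the forebrain libraries too. All 10 mesenchymal genes were below 0 in the knockout, and none passed the threshold. The neuronal sum was 2222 and 1562 CPM in knockout pools against 1982 and 1712 CPM in wild-type pools, and the progenitor sum 4440 and 3912 against 3916 and 3977 CPM. Their part in the values was not tested.

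The knockout forebrain can also be set beside wild-type midbrain, as values only, since the knockout forebrain libraries helped to choose the genes. That choice favours low values in them. The wild-type midbrain libraries serve the tissue comparison too. C130071C03Rik was 0.30 lower on the log2 scale in knockout forebrain (SE 0.112) and Gm17750 2.05 higher (SE 0.511). The lower C130071C03Rik value is in the direction that the choice favours, and its nearest pools were close (121.6 CPM in knockout forebrain, 123.9 CPM in wild-type midbrain). Gm17750 stayed above its midbrain level.

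**Figure D2:**
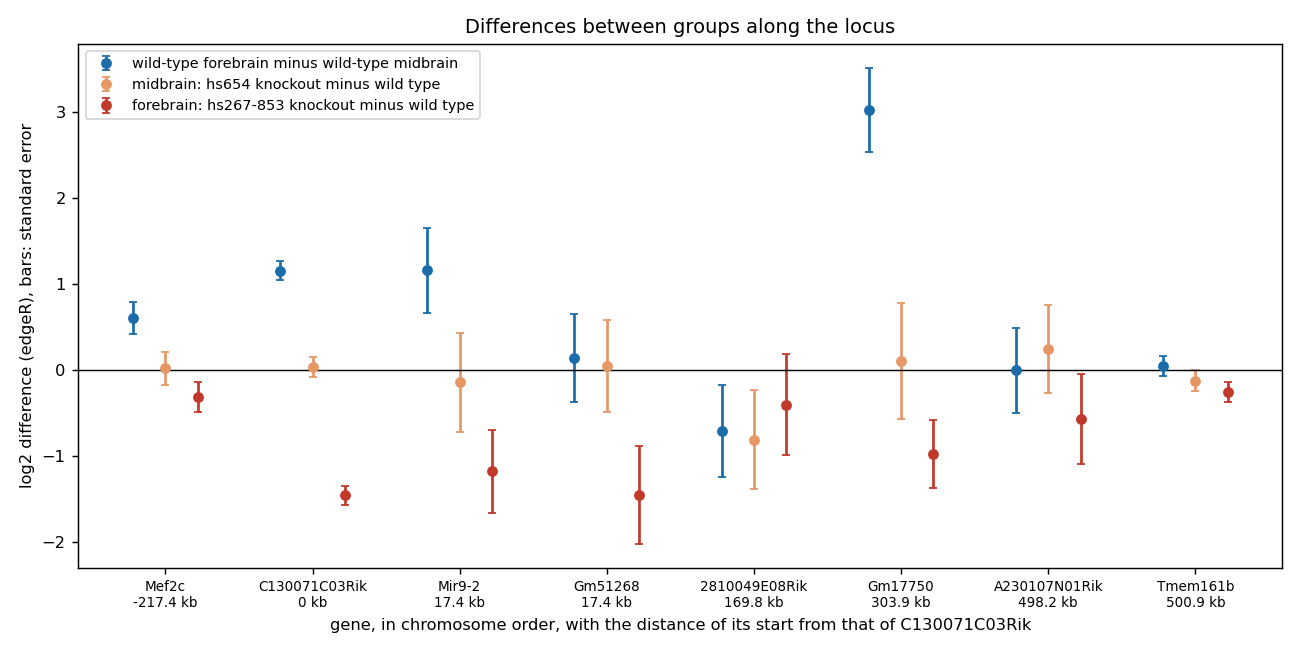
Log2 difference (vertical axis, bars show 1 standard error) of the 8 genes in chromosome order, with the distance of each start from that of C130071C03Rik in kb, for wild-type forebrain minus wild-type midbrain, hs654 knockout minus wild-type midbrain and hs267-853 knockout minus wild-type forebrain. All 8 forebrain knockout values lie below 0 (the comparison that chose the genes), and Gm17750 has the largest tissue difference, 3.03.

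Counts of the overlapping genes were also taken as a share of the gene's own plus the C130071C03Rik counts of the same library, which removes the depth. Counts were not scaled by length, so a share is compared between libraries and not between genes. Mir9-2 took 0.385% to 1.09%, with its wild-type forebrain pools at 0.783% (exact Clopper-Pearson 95% interval 0.539% to 1.10%) and 0.599% (0.380% to 0.897%) and its knockout forebrain pools at 0.649% (0.355% to 1.09%) and 1.09% (0.611% to 1.79%). These intervals, which cover counting error only, overlapped. Both genes were chosen for a fall in the forebrain comparison, which favours a similar share in its groups. The forebrain shares are therefore a description and no test, and Mir9-2 also shares its bases with the host.

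The Gm51268 share was 0.233% to 0.656% in the 4 forebrain libraries and 0.554% to 1.15% in the 4 midbrain libraries. Gm17750, which does not overlap C130071C03Rik, took 1.78% and 1.01% in wild-type forebrain and 2.01% and 1.80% in knockout forebrain. In midbrain it took 0.324% and 0.449% in wild type and 0.246% and 0.599% in the hs654 knockout. The 4 forebrain shares lay above the 4 midbrain shares, although some intervals overlapped between the tissues, such as those of wild-type forebrain replicate 2 (0.720% to 1.38%) and hs654 knockout midbrain replicate 2 (0.241% to 1.23%). Within forebrain, the comparison that chose both genes, both knockout shares lay above both wild-type shares. The values behind this are log2 differences of -1.46 for C130071C03Rik and -0.98 for Gm17750, so it is a description. The intervals of both knockout libraries (1.47% to 2.69% and 1.17% to 2.65%) overlapped that of wild-type replicate 1 (1.41% to 2.23%). The interval of wild-type replicate 2 (0.720% to 1.38%) overlapped that of knockout replicate 2 but not that of knockout replicate 1.

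**Figure D3:**
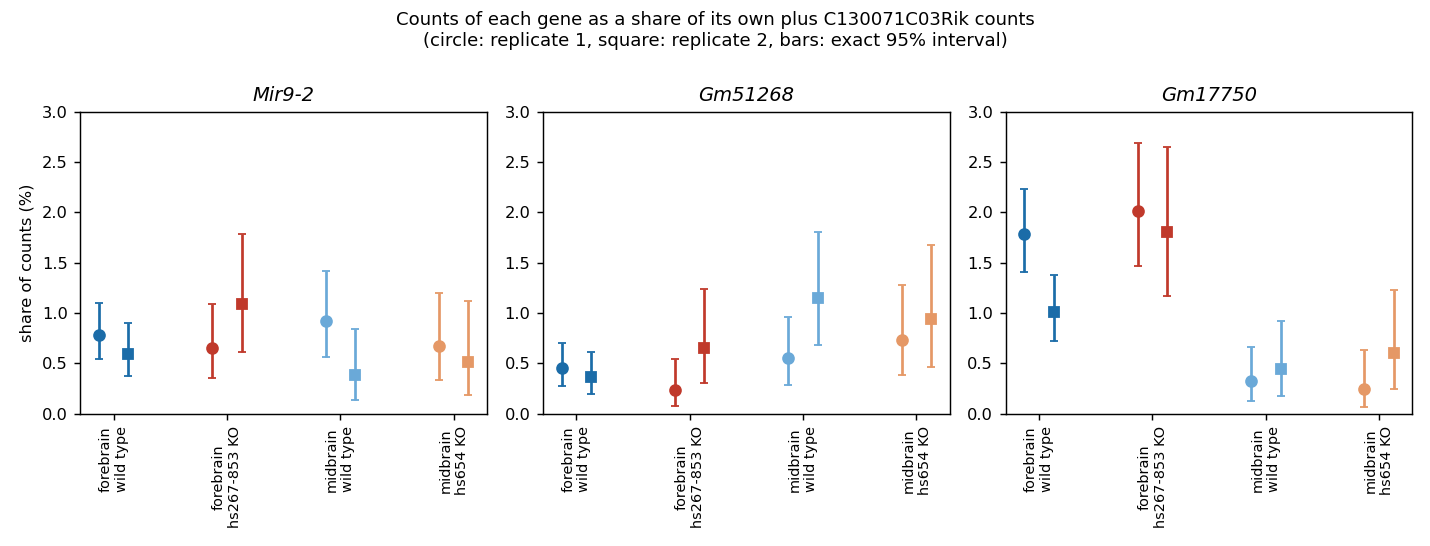
Counts of Mir9-2, Gm51268 and Gm17750 as a percentage of their own plus the C130071C03Rik counts in each of 8 libraries (circles replicate 1, squares replicate 2, bars exact 95% intervals for counting error). The Gm17750 share is 1.01% to 2.01% in forebrain and 0.246% to 0.599% in midbrain.

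The 300 bases around the first RefSeq start of C130071C03Rik and around that of Gm17750 (250 before to 50 after) are shown because these are the non-coding genes of the locus that passed in the tissue comparison. The E-box motif CANNTG, the homeodomain core motif TAATTA and the TATA-box motif TATAAA were searched on both strands, and matches are in capitals. The C130071C03Rik window (chr13:83721131-83721430, plus strand) holds 1 E-box, 12 CpG and 60.7% GC. The Gm17750 window (chr13:84064725-84065024, minus strand, written 5′ to 3′) holds 2 matches of the TATA-box motif, which overlap on opposite strands, with 2 CpG and 36% GC.
C130071C03Rik: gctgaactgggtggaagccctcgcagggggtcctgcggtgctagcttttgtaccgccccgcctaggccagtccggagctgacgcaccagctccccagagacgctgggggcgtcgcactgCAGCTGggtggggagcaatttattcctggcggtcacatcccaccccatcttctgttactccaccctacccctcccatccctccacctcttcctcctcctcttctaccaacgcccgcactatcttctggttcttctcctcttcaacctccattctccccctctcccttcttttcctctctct
Gm17750: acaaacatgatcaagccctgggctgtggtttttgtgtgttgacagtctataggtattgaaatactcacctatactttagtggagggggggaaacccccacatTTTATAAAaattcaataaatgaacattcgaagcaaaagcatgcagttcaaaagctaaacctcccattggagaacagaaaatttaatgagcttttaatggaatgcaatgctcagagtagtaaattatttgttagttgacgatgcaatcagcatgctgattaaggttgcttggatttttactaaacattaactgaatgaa
Among 32851 windows of the same length, the E-box motif is in 72.3%, the homeodomain motif in 5.29% and the TATA-box motif in 13.6%, and the medians are 7 CpG and 52.7% GC. A match describes the letters only.

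Other genes of the miR-9 pathway give the setting of the locus. Mir9-3hg, the host transcript of Mir9-3, measured 139.1 and 139.8 CPM in wild-type forebrain, 144.9 and 142.7 CPM in knockout forebrain, 54.3 and 60.2 CPM in wild-type midbrain, and 56.1 and 56.1 CPM in knockout midbrain. Like C130071C03Rik it was higher in wild-type forebrain, by 1.29 (SE 0.0691, adjusted p = 2.44e-08, edgeR). In the hs267-853 knockout it differed by 0.04 (SE 0.0653, adjusted p = 0.99, edgeR), where C130071C03Rik was at -1.46, and in the hs654 knockout by -0.03 (SE 0.0735). Mir9-3 itself had 15 and 17 counts in wild-type forebrain, 12 and 8 in knockout forebrain, 0 and 3 in wild-type midbrain, and 9 and 4 in knockout midbrain. It passed in the tissue comparison (adjusted p = 0.0105, edgeR). Mir9-1 had 0 to 4 counts and was not tested.

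Of 15 genes reported as targets of either arm of miR-9, 6 were higher and 6 lower in wild-type forebrain, and 3 did not pass. The arms, which differ in seed, were not separated in this list. Among all genes 29.6% passed in either direction. The median difference of the targets was -0.04 against 0.0012 over all genes. Gsx2, a transcription factor gene of the ventral forebrain, measured 21.2 and 13.9 CPM in forebrain against 0.506 and 0.319 CPM in midbrain. The progenitor genes Nr2e1 (174.3 and 175.7 against 54.0 and 47.1 CPM) and Hes1 (56.5 and 55.4 against 20.5 and 25.9 CPM) were higher too. Lower in forebrain were the neuronal transcription factor genes Onecut1 (0.068 and 0.310 against 19.2 and 19.7 CPM) and Onecut2 (5.77 and 12.6 against 158.4 and 154.4 CPM), and Map1b, a microtubule-binding protein gene (-0.50, SE 0.076).

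In the knockouts no target passed the threshold in edgeR, 0 of 15 in each tissue, with medians of 0.06 in both, against 0.01 in forebrain and -0.000922 in midbrain over all genes. Onecut1 had 1 and 4 counts in wild-type and 17 and 18 in knockout forebrain (2.50, SE 0.507, adjusted p = 0.272, edgeR). Onecut2 had 15.9 and 13.9 CPM in knockout forebrain against 5.77 and 12.6 CPM in wild-type forebrain (0.73, SE 0.229, adjusted p = 0.866, edgeR). Knockout pools were above wild-type pools for both, and both were still far below their midbrain levels. Both passed without a filter on low counts, a setting in which the calls over all genes rose too. The other 13 targets lay between -0.09 and 0.14 in the forebrain knockout.

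**Figure D4:**
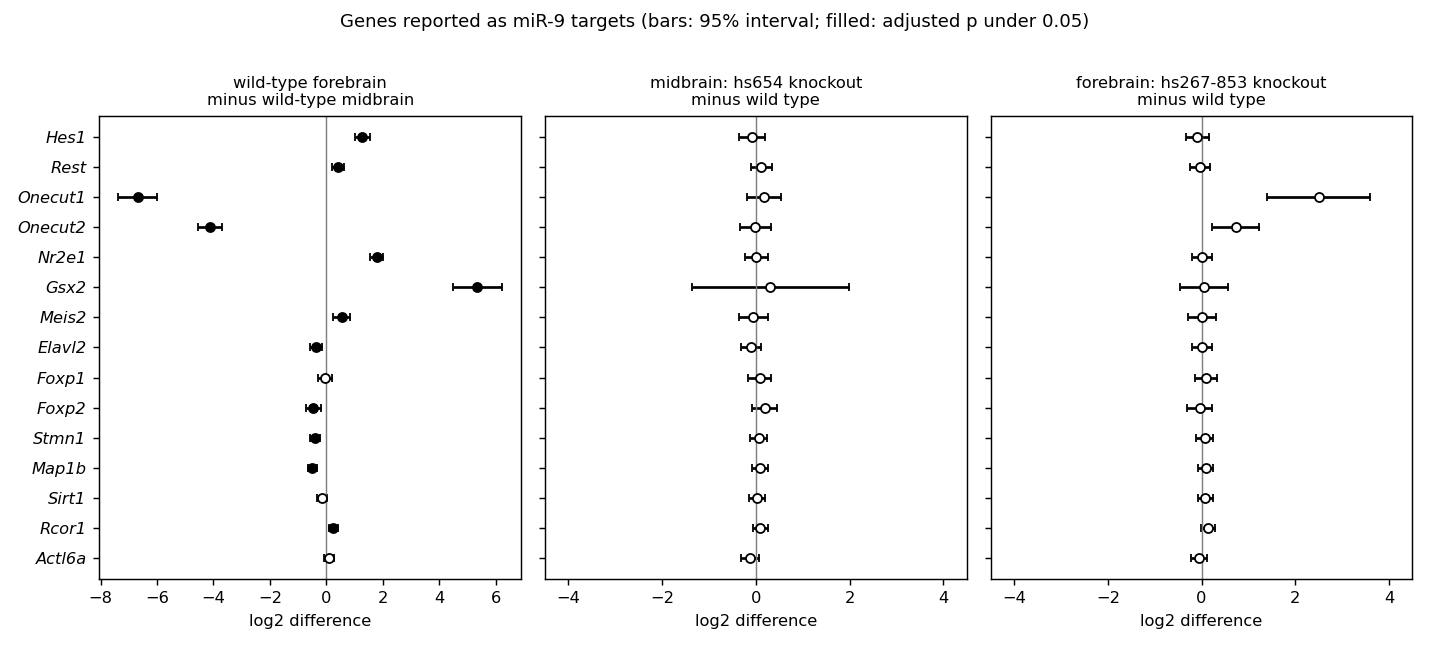
Log2 difference (horizontal axis) of 15 genes reported as targets of either arm of miR-9 in the tissue, hs654 and hs267-853 comparisons. Bars are 95% intervals, and filled points passed an adjusted p of 0.05. The tissue panel has a wider axis. In the tissue panel 12 points are filled, in the knockout panels 0, where Onecut1 (2.50) and Onecut2 (0.73) lie farthest from 0 in forebrain.

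The miRNA processing genes, 13 in all, held 2 that were higher in wild-type forebrain, Dicer1 (0.32) and Ago2 (0.31), where 29.6% of all genes passed in either direction. Another 4 were lower, among them Ago4 (-0.50), Tnrc6b (-0.37) and Tnrc6a (-0.21). None passed in a knockout comparison (0 of 13 in each, edgeR). Without midbrain wild-type replicate 1, only Dicer1 and Tnrc6b of this list passed in the tissue comparison.

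Mef2c was set beside its family and the class IIa histone deacetylases, which bind and repress MEF2 proteins. Of these 8 genes, Mef2c and Mef2d (0.35, SE 0.0964, adjusted p = 0.0155, edgeR) were higher in wild-type forebrain, and Hdac5 (-0.66, SE 0.0721) and Hdac9 (-0.74, SE 0.145) were lower. Mef2a differed by -0.11, Mef2b by -0.04, Hdac4 by -0.10 and Hdac7 by -0.18, none past the threshold, which 29.6% of all genes passed. In both knockouts 0 of 8 passed in edgeR, with Mef2a at -0.07 and Mef2d at 0.01 in forebrain beside -0.32 for Mef2c. Tmem161a, the paralogue of Tmem161b, differed by -0.09 between the tissues, 0.11 in the forebrain knockout and -0.18 in the midbrain knockout, and passed in none of them.

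**Figure D5:**
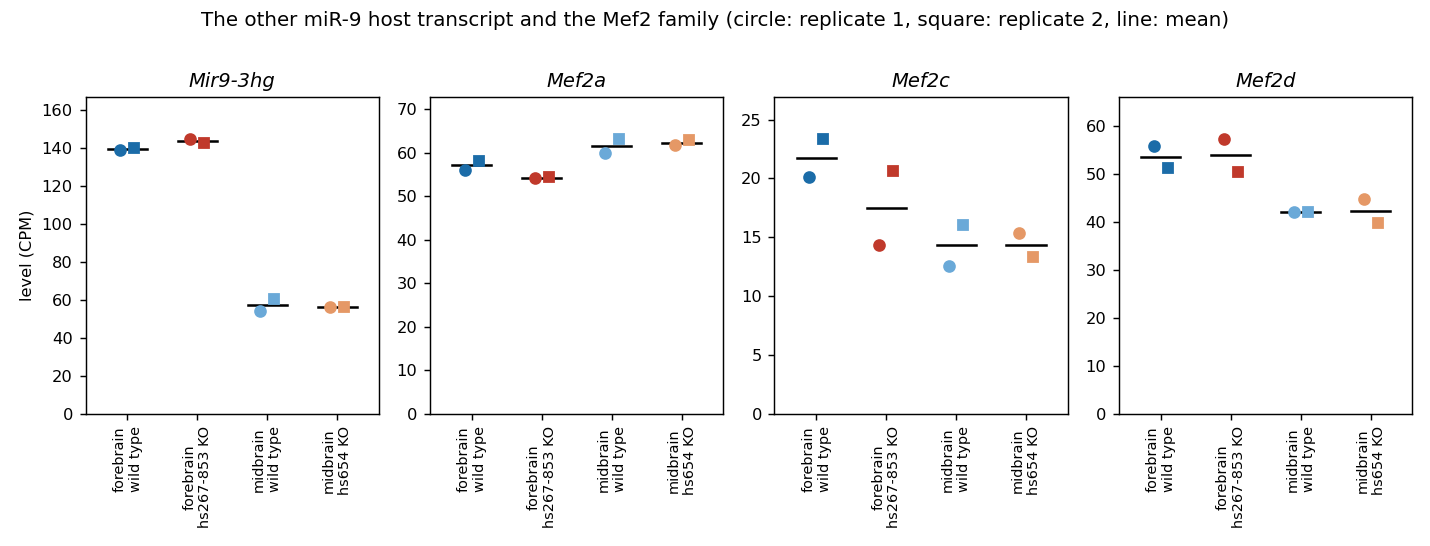
Level (CPM, linear axis from 0) of Mir9-3hg, Mef2a, Mef2c and Mef2d in 8 libraries by group; circles are replicate 1, squares replicate 2 and lines the mean of 2 libraries. Mir9-3hg is at 139.1 to 144.9 CPM in all 4 forebrain libraries and at 54.3 to 60.2 CPM in midbrain.

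Protein-coding genes farther out on the same chromosome, 10 in all from Nr2f1 to Cox7c, were tested as flanks. In wild-type forebrain Polr3g (0.43, adjusted p = 0.0323) and Nr2f1 (0.29, adjusted p = 0.0299) were higher and Adgrv1 (-1.58, adjusted p = 7.06e-09) was lower in edgeR. Among all genes 29.6% passed in either direction, so the flanks lay near that share. Only Adgrv1 passed without forebrain wild-type replicate 1, without midbrain wild-type replicate 1 or without midbrain wild-type replicate 2. In the knockouts 0 of 10 passed, with medians of -0.06 in forebrain and -0.07 in midbrain. Adgrv1, an adhesion receptor gene, had 68.0 and 68.8 CPM in wild-type forebrain against 91.1 and 79.6 CPM with the deletion (0.32, SE 0.0738, adjusted p = 0.394, edgeR). Arrdc3 (-0.35) and Ccnh (-0.29) were below 0 there. Adgrv1 and Arrdc3 passed without a filter on low counts, a setting in which the calls over all genes rose too.

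Likeness was measured as Pearson's r of log2 CPM over the 8 libraries, which share tissue and pool. Outside the locus, 11884 tested genes with a mean of at least 5 CPM were compared. That limit was not applied within the locus, where Mir9-2, Gm51268, Gm17750, A230107N01Rik and 2810049E08Rik had only 86 to 209 counts each over the 8 libraries. Within the locus, the libraries include the forebrain pools that chose the genes for a shared fall. That choice favours r above 0 among them, so these values are a description. C130071C03Rik had r of 0.78 with Mir9-2, 0.71 with Tmem161b, 0.58 with Gm17750 and 0.52 with Mef2c. It had 0.44 with Gm51268, 0.29 with A230107N01Rik and 0.21 with 2810049E08Rik. Mef2c had 0.67 with Gm17750, 0.56 with Mir9-2, 0.30 with Tmem161b and 0.19 with Gm51268, but -0.37 with A230107N01Rik and -0.58 with 2810049E08Rik. Outside the locus, the genes most like C130071C03Rik were Fam193a (0.95), Pop7 (0.93), 1700094J05Rik (0.92), Ap1g1 (0.91) and Appbp2 (0.91). Their swing was far smaller. Fam193a averaged 100.4 CPM in wild-type forebrain and 95.5 CPM in knockout forebrain. Most like Mef2c were Snx33 (0.98), Hmcn1 (0.98), Chmp2b (0.97), Tmem115 (0.97) and Ube2q2 (0.96).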

How the data were processed

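RNA-seq libraries from E11.5 mouse forebrain and midbrain (8 libraries, 4 groups of 2) fall into groups by tissue and genotype, as their titles give them. The other samples of the series, enhancer-capture Hi-C, were not analysed here. The authors deposited raw counts per gene symbol, not normalized, in a table for each library. The submitters' processing notes name STAR, HTSeq, DESeq2 and mm10, without versions. The annotation, the strand setting and the handling of reads over 2 genes are not given in the sources used here. Rows that name no gene were kept out. Of reads counted to genes, outside features or as ambiguous, genes held 40.7% to 44.1%, positions outside features 55.4% to 58.9% and ambiguous ones 0.431% to 0.488%. Reads listed as not aligned, 21500407 to 41781562 per library, are not part of these shares.

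Counts were analysed in R 4.3.3 with edgeR 4.0.16: filterByExpr (15383 genes left), TMM scaling (factors 0.978 to 1.01), and 1 quasi-likelihood fit over all 8 libraries with group as the only term (4 residual degrees of freedom, biological coefficient of variation 7.62%). Tests were two-sided, adjusted by Benjamini-Hochberg over all genes tested, with a threshold of 0.05. Likeness used log2 CPM with a prior count of 2. DESeq2 1.42.0 and limma-voom 3.58.1 were among the alternatives, with RLE scaling, no filter on low counts, only the groups compared, a replicate block, and leaving out each library. Chi-square per degree of freedom between replicates was 3.75 to 7.74, above sampling noise, so no pair was a repeat deposit of 1 library.

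The genes, lists and tests were chosen with earlier results of these data known. A gene of the lists of targets and forebrain regional genes is not reported here and was left out of both. All genes of the locus are named, as are the members of the families and flanks that passed. Of other lists, the named genes are up to 3 that rose most and 3 that fell most past the threshold, at a mean of at least 1 CPM. Onecut1, Onecut2 and the knockout values of Adgrv1, Arrdc3 and Ccnh were singled out after they were seen. Positions and sequences are from RefSeq tables of GRCm38.p6, the assembly mm10 denotes. All 8 genes matched by symbol. Exon lengths were not used, so levels are not compared between genes.

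On simulated counts for the midbrain knockout comparison (15139 genes), the test recovered 89.2% of genes changed by 2 on the log2 scale, 79.1% at 1 and 53% at 0.585, with 11 false calls among 157 and 0 of the wrong sign. For the tissue comparison (15143 genes) the shares were 89.2%, 79.1% and 56.9%, with 16 false calls among 164. The changed genes were drawn from all genes tested, at any depth. With 157 calls the adjusted threshold is easier to pass than with 0, the number in the real midbrain knockout comparison. The simulated shares are therefore too high for that comparison, above all for the low-count genes of the locus (standard errors of 0.512 to 0.675).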

Additional observations from a re-analysis of the deposited data

Results flagged for a closer look

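C130071C03Rik was flagged because the knockout effects in the 2 tissues differed: the log2 difference in midbrain (hs654) minus that in forebrain (hs267-853) was 1.49 (SE 0.157). It contains the forebrain comparison that chose the gene, so it is a description, and the deletion and the tissue cannot be told apart in it. Omitting single libraries gave values from 1.29 to 1.73. Of the 8 genes of the locus, 7 had a value above 0.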

How the results depend on the processing

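Across the alternatives run, the number of locus genes called stayed at 3 in the tissue comparison, except for the omissions of 1 library that took Mef2c below the threshold, and at 0 in the midbrain knockout. Of the 8 genes, 7 to 8 were below 0 in the forebrain knockout. No value past the threshold changed its sign. Replicate numbers did not pair the samples: deviations from the group means correlated by -0.0255 to 0.067 between same-numbered libraries. With the replicate number as a block, 3 genes of the locus were called between tissues, 0 in the midbrain knockout, 8 were below 0 in the forebrain knockout and 7 above 0 in the difference of the effects. Over all genes the block gave 4501 calls between tissues (4548 without it), 0 in the midbrain knockout (0), 3 in the forebrain knockout (2) and 1 in the difference (1).

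Counts over all genes moved by more than 1.5 times in the knockout comparisons. Without a filter on low counts they were 22 in midbrain, 161 in forebrain and 111 for the difference. DESeq2 gave 13 in forebrain and 4 for the difference, and limma-voom 1 in forebrain. Without forebrain hs267-853 knockout replicate 2 they were 209 in forebrain and 64 for the difference. Depth limits Mir9-2, Gm51268, Gm17750, A230107N01Rik and 2810049E08Rik most, with 86 to 209 counts each over the 8 libraries.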
